A study of Homo sapiens with 9 samples.

Results

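Caspases and the death receptor route were examined through 8 genes in PANC-1 cells, an epithelial line from a human pancreatic carcinoma. The 8 were taken by symbol from a list: the receptors TNFRSF10A and TNFRSF10B, the adaptor FADD, the regulator CFLAR, and the caspases CASP8, CASP9, CASP2 and CASP6. All 8 of 8 were found, each with 1 probe set that names a single gene, among 14232 genes tested. RNA was taken 72 h after treatment, in 3 groups of 3 arrays labelled as biological replicates. One group received 20 nM of a miR-520f mimic, one 20 nM of a negative control mimic, and one the transfection lipid with no mimic, which the labels call non-transfected and which is called reagent-only here. A mimic is a synthetic double-stranded RNA that the silencing complex loads as if it were the microRNA, and all 3 groups share the line, the medium and the lipid. The labels do not say how the replicate cultures were separated, so the p-values reflect only how far these arrays differ among themselves.

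Death receptors are membrane proteins that recruit FADD when their ligand binds, and FADD in turn gathers CASP8, which cuts itself into an active protease. CFLAR resembles CASP8 but lacks protease activity, and it tunes how much CASP8 becomes active at the receptor. A separate route starts at mitochondria, where released cytochrome c and APAF1 assemble a platform for CASP9. Executioner caspases, CASP6 among them, are cleaved further down and cut structural proteins such as lamins.

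Of these genes CASP8 fell with the miR-520f mimic against both controls, to 0.585 of its level in reagent-only cells and 0.506 of its level in negative control cells. CASP9 and CASP6 rose against both, CASP9 by ratios of 1.48 and 1.45 and CASP6 by 1.29 and 1.41 over reagent-only and negative control cells. TNFRSF10B and CASP2 were lower with miR-520f than in negative control cells, but not called against reagent-only cells, and both were higher in negative control than in reagent-only cells. FADD, CFLAR and TNFRSF10A were called in no comparison.

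The sequences of the microRNA are shown first because the mimic is the only difference between the miR-520f and negative control groups that the labels name. The labels do not say which arm of the hairpin the mimic copies, so both mature arms of MIR520F are given, from RefSeq (GRCh38.p14, chr19:53682213-53682234 for the 3p arm and chr19:53682173-53682194 for the 5p arm, plus strand). Capitals mark the seed, bases 2 to 8, through which a microRNA chiefly pairs with its targets. The other sequences are relatives of the 3p arm.
hsa-miR-520f-3p: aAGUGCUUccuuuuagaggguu
hsa-miR-520f-5p: cCUCUAAAgggaagcgcuuucu
hsa-miR-520c-3p: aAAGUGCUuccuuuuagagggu
hsa-miR-373-3p: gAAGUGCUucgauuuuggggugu
hsa-miR-302a-3p: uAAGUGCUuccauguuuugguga

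None of the other names among the 2545 mature sequences of that table shared the seed of either arm (0 and 0). The first 6 bases of the 3p seed recurred 1 base further on, at bases 3 to 8, in 13 names, and 12 of these had the seed AAGUGCU, the 3 relatives printed above among them. Whether any of the 8 transcripts holds a site for these seeds was not analysed here.

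Array medians over all probe sets on the log2 scale were 4.22 to 4.291 with miR-520f, 4.273 to 4.335 in negative control and 4.309 to 4.336 in reagent-only cells. Every miR-520f median thus lay below every reagent-only median. Replicate 1 of the negative control deviated most from its group, by a root mean square of 0.169 against 0.0698 to 0.131 for the other 8 arrays. Markers of the line were bright for KRT8 (11.3 to 11.8) and KRT18 (8.66 to 9.35), while KRT7 lay at 3.43 to 3.56. Of the mesenchymal markers VIM was bright too (11.8 to 12.2), ZEB1 lay at 6.93 to 8.25 and CDH2 at 3.89 to 4.28. The epithelial markers EPCAM and KRT19 moved with miR-520f against both reagent-only and negative control cells. EPCAM moved by 1.57 and 1.68 and KRT19 by -0.75 and -0.68 on the log2 scale. KRT18 was called higher than in reagent-only cells (0.41, limma adjusted p = 0.00879) but not than in negative control cells (0.28, limma adjusted p = 0.0569). KRT8 and KRT7 were called against neither control. The mesenchymal markers were lower with miR-520f, ZEB1 by log2 fold changes of -1.08 and -1.12, CDH2 of -0.26 and -0.30 and VIM of -0.23 and -0.24, all called. Of 4 immune markers measured, PTPRC, CD3E and CD14 lay at or below 4.09, and CD68, a lysosomal protein, moved with the groups at 7.24 to 7.41 with miR-520f, 8.13 to 8.35 in negative control and 8.51 to 8.90 in reagent-only cells. The summed immune markers ranged over 184 to 207, 317 to 361 and 404 to 510 in the same order on the linear scale, and the part of these marker changes in the results was not tested. Of 5 fibroblast markers, COL1A1 was bright (7.06 to 8.23) and the other 4 did not exceed 3.87, and the 4 endothelial markers did not exceed 3.47. In a bulk sample fewer cells with a transcript and less of it per cell cannot be told apart.

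**Figure D1:**
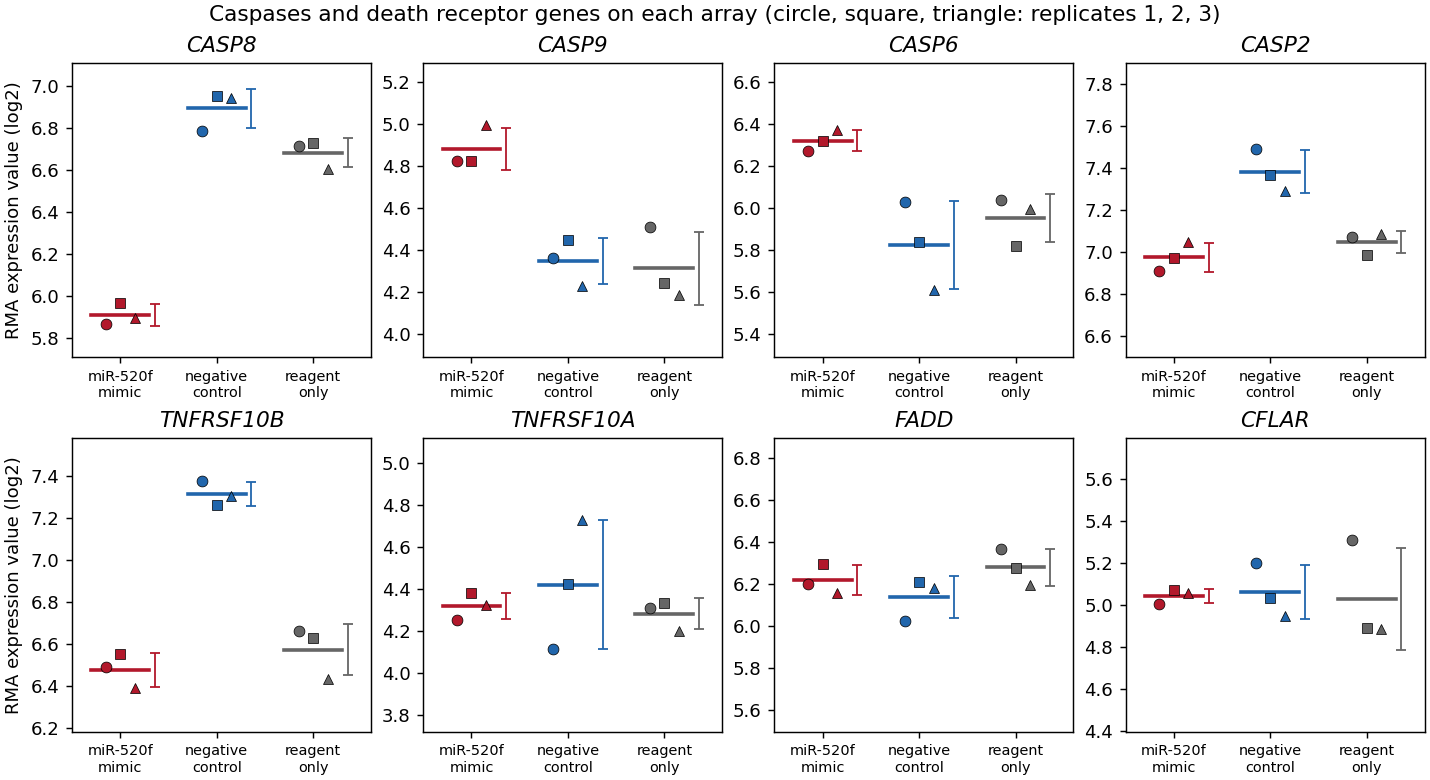
RMA expression values (log2, vertical axis, each panel spanning the same range of 1.4) of the 8 genes on the 9 arrays, for miR-520f, negative control and reagent-only cells from left to right. Symbols are replicates, lines the group means and bars 1 SD. The miR-520f arrays lie apart from all 6 control arrays for CASP8, CASP9 and CASP6, and the negative control arrays lie apart from the others for TNFRSF10B and CASP2.

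Against both controls, 2 of the 8 genes rose (CASP6 and CASP9) and 1 fell (CASP8) at a Benjamini-Hochberg adjusted p under 0.05 in both limma comparisons. Over all genes tested, 9.37% rose and 8.61% fell by that rule. Against reagent-only cells alone the same 2 rose and 1 fell, where the background was 14.5% higher and 13.1% lower. Against the negative control 2 rose and 3 fell (CASP8, CASP2 and TNFRSF10B), where it was 15.4% higher and 12.6% lower. Between the controls 2 genes were higher in negative control than in reagent-only cells (CASP2 and TNFRSF10B) and 0 lower, where 7% of all genes were higher and 8.28% lower (996 and 1178 genes). With arrays centred on the median these all-gene counts were 1198 higher and 928 lower. Centring also moved the all-gene counts for miR-520f against reagent-only cells from 2061 higher and 1866 lower to 2460 and 1524. Against the negative control they moved from 2196 higher and 1800 lower to 2316 and 1653. Complete separation of the miR-520f arrays from the 6 control arrays was seen for 3 of the 8 genes, and for 25.4% of all genes. With 8 genes these counts are small, and the median log2 fold change of the 8 was -0.02 and -0.06 against reagent-only and negative control cells, beside -0.03 and -0.03 over all genes.

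CASP8, the initiator protease of the death receptor complex (probe set 2522728), had values of 5.87, 5.97 and 5.89 with miR-520f, of 6.79, 6.95 and 6.94 in negative control cells and of 6.72, 6.73 and 6.60 in reagent-only cells. All miR-520f arrays were below every control array, with a gap that exceeded the range within any group. The log2 fold change was -0.77 against reagent-only cells (SE 0.075, limma adjusted p = 2.14e-05) and -0.98 against the negative control (SE 0.075, limma adjusted p = 3.77e-06). The controls differed by 0.21 (limma adjusted p = 0.0921), negative control over reagent-only, which was not called. That difference was called without replicate 1 of the negative control, at 0.26 (limma adjusted p = 0.0357). The fall itself passed under every one of 17 alternative settings, with log2 fold changes of -0.82 to -0.71 against reagent-only cells and -1.04 to -0.95 against the negative control.

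CASP9, the initiator of the mitochondrial route (probe set 2397695), measured 4.82, 4.83 and 5.00 with miR-520f, against 4.36, 4.45 and 4.23 in negative control cells and 4.51, 4.24 and 4.19 in reagent-only cells. The miR-520f arrays were again apart from all controls, this time above them, and the 2 control groups overlapped. The log2 fold change was 0.57 against reagent-only cells (SE 0.10, limma adjusted p = 0.00133) and 0.53 against the negative control (SE 0.10, limma adjusted p = 0.00189). The difference between the controls was 0.03 (95% interval -0.19 to 0.26).

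For CASP6, an executioner protease that cleaves lamin A (probe set 2781693), the arrays read 6.27, 6.32 and 6.37 with miR-520f, then 6.03, 5.84 and 5.61 in negative control cells and 6.04, 5.82 and 5.99 in reagent-only cells. The miR-520f values were above all others and close together, whereas the negative control values were spread. The log2 fold change against the negative control was 0.50 (SE 0.10, limma adjusted p = 0.00406), and against reagent-only cells it was 0.37 (SE 0.10, limma adjusted p = 0.0214). The call against reagent-only cells was lost without miR-520f replicate 2 (0.37, limma adjusted p = 0.0562), without miR-520f replicate 3 (0.34, limma adjusted p = 0.0756), without reagent-only replicate 2 (0.30, limma adjusted p = 0.0958) and in an unmoderated model (0.37, adjusted p = 0.0742).

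TNFRSF10B, a receptor for the death ligand TRAIL (probe set 3127703), had values of 6.49, 6.55 and 6.39 with miR-520f, of 7.38, 7.27 and 7.31 in negative control cells and of 6.66, 6.63 and 6.43 in reagent-only cells. Only the negative control arrays stood apart, above the other 6, while the miR-520f and reagent-only arrays overlapped. The log2 fold change was -0.84 for miR-520f against the negative control (SE 0.082, limma adjusted p = 2.08e-05) and 0.74 for the negative control against reagent-only cells (SE 0.082, limma adjusted p = 0.000193). Between miR-520f and reagent-only cells it was -0.10 (95% interval -0.28 to 0.08, limma adjusted p = 0.499). The choice of control therefore decided whether TNFRSF10B was called lower with miR-520f.

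CASP2, a caspase activated on the PIDDosome platform (probe set 3029030), showed the same order at a smaller size. Its values were 6.91, 6.97 and 7.05 with miR-520f, 7.49, 7.37 and 7.29 in negative control cells and 7.07, 6.99 and 7.09 in reagent-only cells. The log2 fold change was -0.41 against the negative control (SE 0.076, limma adjusted p = 0.00185) and -0.07 against reagent-only cells (95% interval -0.24 to 0.10, limma adjusted p = 0.609). The negative control exceeded reagent-only cells by 0.34 (limma adjusted p = 0.0125), and without reagent-only replicate 2 that call was lost (0.30, limma adjusted p = 0.064).

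The other TRAIL receptor, TNFRSF10A (probe set 3127775), lay at 4.25 to 4.38 with miR-520f, at 4.11 to 4.73 in negative control cells and at 4.20 to 4.33 in reagent-only cells. Its negative control arrays covered the range of both other groups. The 95% interval of its log2 fold change was -0.25 to 0.32 against reagent-only cells and -0.38 to 0.18 against the negative control. Changes within these bounds were not excluded with 3 arrays a group. FADD, which bridges receptors and CASP8 (probe set 3338424), lay at 6.15 to 6.29 with miR-520f, at 6.02 to 6.21 in negative control cells and at 6.19 to 6.37 in reagent-only cells. Its intervals were -0.24 to 0.11 and -0.10 to 0.26 against reagent-only and negative control cells. CFLAR (probe set 2522616) lay at 5.00 to 5.07, 4.95 to 5.20 and 4.88 to 5.31 in the 3 groups in the same order. Its log2 fold changes were 0.02 (95% interval -0.24 to 0.27) against reagent-only and -0.02 (95% interval -0.27 to 0.23) against negative control cells.

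**Figure D2:**
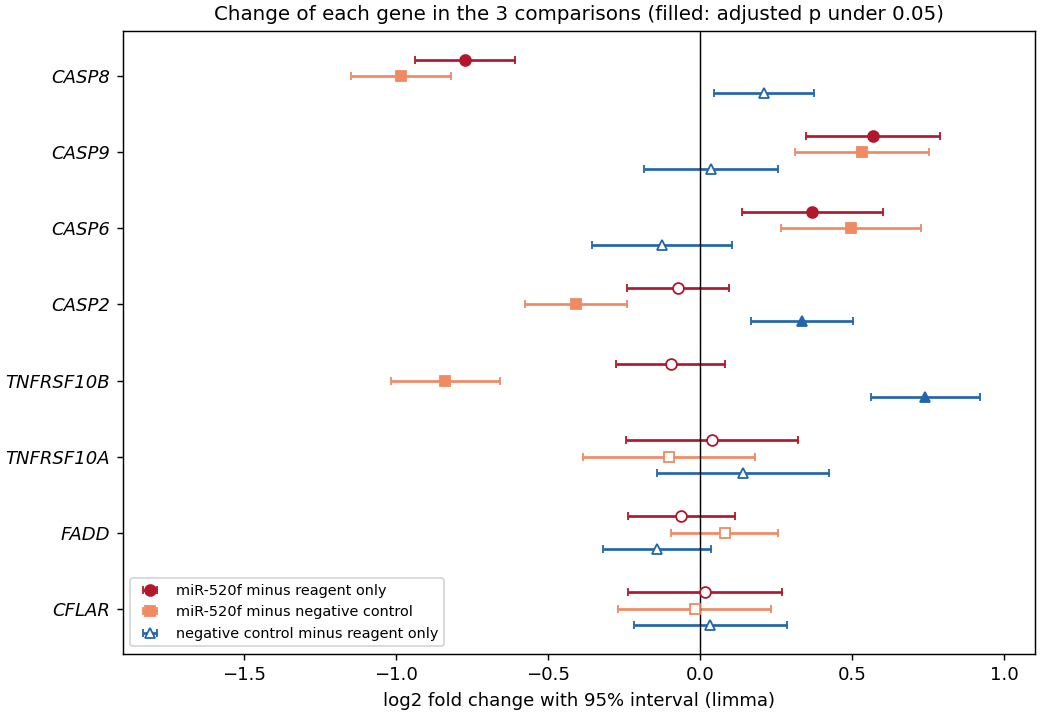
Log2 fold changes (horizontal axis) with 95% limma intervals for the 8 genes in the 3 comparisons, filled where the adjusted p was under 0.05. CASP8 lies at -0.77 and -0.98, CASP9 and CASP6 lie on the other side of 0, and the intervals of TNFRSF10B against reagent-only and negative control cells do not overlap.

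For chosen pairs among the 8 genes, unequal change was examined by differences between 2 genes on the same array. These differences remove anything that shifts a whole array, and only their change between groups is read, not their level. CFLAR minus CASP8 was -0.87 ± 0.03 with miR-520f, -1.83 ± 0.22 in negative control and -1.66 ± 0.22 in reagent-only cells (log2, SD, n = 3 each). It was higher with miR-520f by 0.97 than in negative control cells and by 0.79 than in reagent-only cells, with no overlap between arrays. FADD minus CASP8 was 0.31 ± 0.04 with miR-520f, -0.76 ± 0.01 in negative control and -0.41 ± 0.05 in reagent-only cells (SD, n = 3 each). The 4 miR-520f comparisons for CFLAR minus CASP8 and FADD minus CASP8 each gave an exact two-sided permutation p of 0.1. This is the smallest that 3 against 3 arrays allow, and it was 0.15 after adjustment over 12 tests. CFLAR and FADD were called in no comparison, so these 4 comparisons mainly restate the fall of CASP8 and are not separate support for it. The control groups were also apart from each other for FADD minus CASP8, by a change of -0.35 for negative control against reagent-only cells with the same exact permutation p of 0.1. The CFLAR and CASP8 genes lie close together on chromosome 2, with CASP10 between them in the order of RefSeq protein-coding genes.

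TNFRSF10A minus TNFRSF10B was -2.16 ± 0.09 with miR-520f, -2.90 ± 0.35 in negative control and -2.29 ± 0.06 in reagent-only cells (SD, n = 3 each). The negative control arrays did not overlap either other group (exact permutation p = 0.1 each), while miR-520f and reagent-only arrays did (exact permutation p = 0.2). TNFRSF10A was called in no comparison, so this pair mainly restates the values of TNFRSF10B. CASP6 minus CASP9 was 1.44 ± 0.06 with miR-520f, 1.48 ± 0.16 in negative control and 1.64 ± 0.15 in reagent-only cells (SD, n = 3 each). For that pair miR-520f and negative control overlapped (exact permutation p = 0.8), and miR-520f was below reagent-only cells by a change of -0.20 without overlap (exact permutation p = 0.1).

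**Figure D3:**
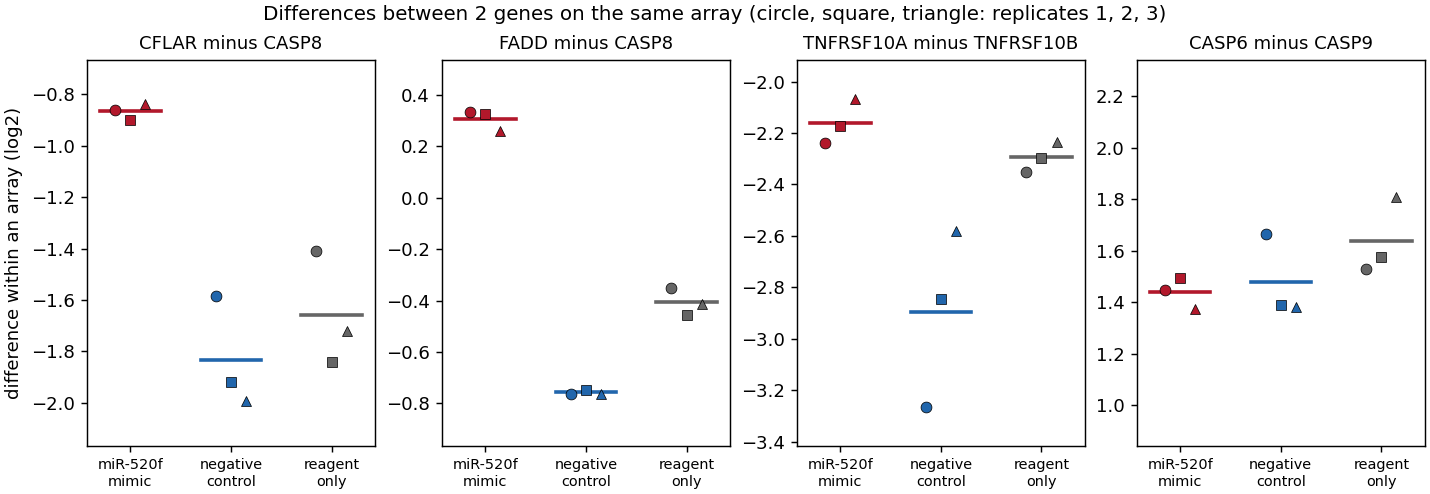
Difference in log2 value between 2 genes on the same array (vertical axis, each panel spanning 1.5) for 4 pairs, by group from left to right, with group means as lines and replicates as symbols. CFLAR minus CASP8 and FADD minus CASP8 are higher on all 3 miR-520f arrays than on the 6 control arrays, and TNFRSF10A minus TNFRSF10B is lower on the negative control arrays.

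Likeness of patterns was measured by the root mean square difference between 2 genes' 9 values, each centred on its own mean. Among the 8 genes CASP6 and CASP9 were the most alike pair (0.138), followed by FADD and CFLAR (0.153), and CASP8 and CASP9 were the least alike (0.688). Over all genes tested, the pattern of CASP8 was closest to NUMA1 (0.0741), whose product organises spindle poles, with log2 fold changes of -0.80 and -1.01 against reagent-only and negative control cells. C11orf24 came next (0.0742). CASP9 was closest to ATG4C, an autophagy protease (0.0573), and AKIRIN2 (0.0739), and CASP6 to ENC1 (0.0691) and HOMER1 (0.0711). The pattern of TNFRSF10B was closest to GADD45B, a stress-induced gene (0.0693), and ATXN1 (0.0762), and that of CASP2 to B3GALT4 (0.0411) and XK (0.0527). For the genes that were called in no comparison the nearest were ZDHHC15 (0.0312) and WDR7 (0.0314) for FADD, SH3RF1 (0.0339) and INTS11 (0.055) for CFLAR, and PTBP3 (0.0677) and EIF2S1 (0.0706) for TNFRSF10A. The 9 points of each gene share the same arrays and groups, and these values are a description only.

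Promoter windows are printed for the genes called against both controls, CASP6 and CASP9, which rose together, and CASP8, which fell. They come from RefSeq (GRCh38.p14), 250 bases before to 50 after a start site, and where a gene had several windows (3 for CASP8, 2 for CASP9) the one farthest upstream is shown. The windows are chr4:109703396-109703695, minus strand, for CASP6, chr1:15524741-15525040, minus strand, for CASP9 and chr2:201233213-201233512, plus strand, for CASP8. Capitals mark the GC box GGGCGG on either strand.
CASP6: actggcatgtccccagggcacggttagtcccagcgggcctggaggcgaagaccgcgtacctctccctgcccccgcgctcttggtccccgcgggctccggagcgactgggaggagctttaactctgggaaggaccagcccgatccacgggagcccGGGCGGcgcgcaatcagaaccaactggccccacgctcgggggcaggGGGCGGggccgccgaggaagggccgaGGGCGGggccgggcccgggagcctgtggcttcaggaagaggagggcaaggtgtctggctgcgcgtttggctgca
CASP9: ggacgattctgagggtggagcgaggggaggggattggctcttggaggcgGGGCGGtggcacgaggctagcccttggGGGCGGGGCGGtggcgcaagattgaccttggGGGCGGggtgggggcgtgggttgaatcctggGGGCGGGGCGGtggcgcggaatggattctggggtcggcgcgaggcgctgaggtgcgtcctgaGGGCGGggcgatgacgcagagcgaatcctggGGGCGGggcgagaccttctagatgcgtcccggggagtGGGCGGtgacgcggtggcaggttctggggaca
CASP8: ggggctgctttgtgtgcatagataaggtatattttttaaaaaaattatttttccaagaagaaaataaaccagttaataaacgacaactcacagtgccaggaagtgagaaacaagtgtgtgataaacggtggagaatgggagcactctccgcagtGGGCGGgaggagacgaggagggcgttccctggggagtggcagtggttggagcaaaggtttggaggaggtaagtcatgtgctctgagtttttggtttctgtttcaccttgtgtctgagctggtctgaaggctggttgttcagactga

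The CASP6 window held 3 matches to the GC box, the CASP9 window 9, with overlapping matches counted singly, and the CASP8 window 1, where 45% of 35116 windows of that length held at least 1. The G and C content was 72%, 71.3% and 46.3% in the CASP6, CASP9 and CASP8 windows. CASP2, FADD and CFLAR were not called against both controls. Their farthest upstream windows held 4, 2 and 1 matches, with a G and C content of 71.3%, 66.7% and 58.7%. Of the windows farther downstream, those of CASP8 held 0 matches each, that of CASP9 8, that of CASP2 0 and those of CFLAR 0, 0 and 2. No windows for TNFRSF10A and TNFRSF10B were available here. These matches describe letters in the windows and were not related to the expression values by any test.

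The wider pathway was then taken from lists of 58 further genes, of which 46 had a single-gene probe set. Against both controls 7 of the 46 rose and 1 fell (15.2% and 2.17%, beside 9.37% and 8.61% of all genes). Against reagent-only cells 7 rose and 7 fell (15.2% and 15.2%, beside 14.5% and 13.1% of all genes). Against the negative control 8 rose and 4 fell (17.4% and 8.7%, beside 15.4% and 12.6%). The median log2 fold change of the 46 was -0.05 in each, beside -0.03 over all genes.

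The next list held inhibitors of apoptosis together with XAF1, an antagonist of XIAP. Of its 6 measured genes 3 rose against both controls, where 9.37% of all genes rose, and 3 were called in neither comparison, XAF1 among them. XIAP, which binds and inhibits active caspases, lay at 7.16 to 7.36 with miR-520f, at 6.18 to 6.63 in negative control and at 6.54 to 6.84 in reagent-only cells. It rose by 0.60 on the log2 scale over reagent-only cells (limma adjusted p = 0.00312) and by 0.82 over negative control cells (limma adjusted p = 0.000375), and the pairs of values that follow keep this order. BIRC6, a large ubiquitin-carrying inhibitor, rose by 0.78 and 0.50, and BIRC5, or survivin, a mitotic protein as well, rose by 0.44 and 0.46. The BIRC5 call against reagent-only cells was lost in the unmoderated model (0.44, adjusted p = 0.0532).

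A list of 6 genes held parts of the apoptosome and PIDDosome platforms, APAF1, CYCS, CRADD and PIDD1, together with DIABLO and HTRA2, mitochondrial proteins that antagonise inhibitors of apoptosis. Of the 6, APAF1 and DIABLO rose against both controls (33.3%, beside 9.37% of all genes), so 1 of the 2 belongs to a platform. APAF1, the scaffold that activates CASP9, lay at 5.76 to 5.93 with miR-520f, at 5.29 to 5.54 in negative control and at 4.46 to 4.52 in reagent-only cells. Its 3 groups did not overlap, and the negative control itself exceeded reagent-only cells by 0.91 (limma adjusted p = 5.68e-05), so its log2 fold changes of 1.34 and 0.43 depended on the control. DIABLO rose by 0.55 and 0.37 (limma adjusted p = 0.00244 and 0.0229). Its call against the negative control was lost in the unmoderated model and without miR-520f replicate 2 or 3 or negative control replicate 1 or 2, with log2 fold changes of 0.30 to 0.37 and adjusted p of 0.0613 to 0.0963. CYCS, cytochrome c, named after its values were seen, was lower with miR-520f than in the negative control (-0.61, limma adjusted p = 0.00044). It was higher in negative control than in reagent-only cells (0.53, limma adjusted p = 0.00296). Between miR-520f and reagent-only cells CYCS differed by -0.08 without a call (limma adjusted p = 0.637).

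Of 7 other death and decoy receptors, 1 rose against both controls (14.3%, beside 9.37% of all genes). TNFRSF21, also known as death receptor DR6, lay at 5.16 to 5.33 with miR-520f, at 4.26 to 4.80 in negative control and at 4.19 to 4.32 in reagent-only cells, and it rose by 0.99 (limma adjusted p = 9.93e-05) and 0.75 (limma adjusted p = 0.000626) on the log2 scale. FAS and TNFRSF12A, named after their values were seen, had their highest arrays in the negative control group. FAS, the receptor of FAS ligand, was lower with miR-520f than in the negative control (-0.86, limma adjusted p = 8.06e-05) and higher in negative control than in reagent-only cells (0.58, limma adjusted p = 0.00302). Against reagent-only cells FAS had a log2 fold change of -0.28 (limma adjusted p = 0.0653), which was called without negative control replicate 1 (-0.28, limma adjusted p = 0.0367) and without reagent-only replicate 2 (-0.38, limma adjusted p = 0.0202). TNFRSF12A, the receptor of TWEAK, had log2 fold changes of -0.73 with miR-520f against the negative control (limma adjusted p = 0.00182) and 0.55 in negative control against reagent-only cells (limma adjusted p = 0.0187). The second of these was lost in the unmoderated model and without negative control replicate 2 or reagent-only replicate 2 or 3. Adjusted p was then 0.0691 to 0.105. Between miR-520f and reagent-only cells TNFRSF12A differed by -0.18 without a call (limma adjusted p = 0.438).

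The 5 death ligands measured were dim on every array, from 2.64 to 3.33, and 0 were called in any of the 3 limma comparisons. Of all genes, 14.5% were higher and 13.1% lower against reagent-only cells. The shares were 15.4% and 12.6% against the negative control, and 7% and 8.28% between the controls. At an unadjusted p under 0.05 the count of ligands was also 0 in each comparison, as it was after adjustment in the unmoderated model. All-gene counts in that model were 1566 higher and 1526 lower, 1681 and 1434, and 536 and 751 in the same order. The share of all genes at the unadjusted threshold was not counted. TNFSF10, which encodes TRAIL, lay at 2.79 to 2.82 with miR-520f, at 2.90 to 2.96 in negative control and at 2.83 to 2.95 in reagent-only cells (log2 fold changes -0.08 and -0.12). TNF, the tumour necrosis factor gene, had log2 fold changes of 0.06 and -0.11. Of the 3 other caspases measured, 0 were called against both controls, where 9.37% of all genes rose and 8.61% fell. Their values did not exceed 3.09 on any array. CASP5 had log2 fold changes of -0.20 against reagent-only cells (limma adjusted p = 0.0485) and -0.14 against the negative control (limma adjusted p = 0.156). The call against reagent-only cells was lost in 11 of 16 alternatives, with adjusted p of 0.0522 to 0.19, among them median centring (-0.13, limma adjusted p = 0.18), further quantile normalization (-0.17, limma adjusted p = 0.0559) and leaving out any one miR-520f or reagent-only array or negative control replicate 2 or 3. In the unmoderated model the difference from the negative control was called (adjusted p = 0.0492). CASP14, a caspase of the skin, had log2 fold changes of -0.12 and -0.10.

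Among 9 adaptors and kinases of the receptor complexes, 0 rose and 0 fell against both controls. Of all genes 9.37% rose and 8.61% fell by that rule. Against reagent-only cells 4 fell and 5 were not called, where 13.1% of all genes fell. One of the 4, MLKL, a kinase-like effector of necroptosis named after its values were seen, was dim on every array (2.76 to 3.10). Its call was lost without reagent-only replicate 2 (-0.25, limma adjusted p = 0.0532). In the unmoderated model MLKL was also called lower than in the negative control (-0.14, adjusted p = 0.0373), and so against both controls. Against the negative control 1 rose and 8 were not called, where 15.4% of all genes rose. The 1 was RNF31, the catalytic subunit of the linear ubiquitin ligase complex, also named after its values were seen (0.26, limma adjusted p = 0.0378). Its call against the negative control was lost in 10 of 17 alternatives, with adjusted p of 0.0504 to 0.153. Among them were leaving out miR-520f replicate 1 or 2, any one negative control array, or reagent-only replicate 2 or 3. RNF31 was lower in negative control than in reagent-only cells (-0.34, limma adjusted p = 0.0176). That call was lost in the unmoderated model (adjusted p = 0.051) and without reagent-only replicate 2 (limma adjusted p = 0.0629). Between miR-520f and reagent-only cells RNF31 differed by -0.08 without a call (limma adjusted p = 0.597). TRADD, the adaptor of the tumour necrosis factor receptor (named after its values were seen), was lower with miR-520f than in reagent-only cells (-0.46, limma adjusted p = 0.0011) and also lower in negative control than in reagent-only cells (-0.36, limma adjusted p = 0.0101). RBCK1, a subunit of the linear ubiquitin ligase complex, differed by -0.39 (limma adjusted p = 0.0207) and -0.25 (limma adjusted p = 0.114). Its call against reagent-only cells was lost in the unmoderated model and without miR-520f replicate 1 or 3 or reagent-only replicate 1 or 2, with adjusted p of 0.0541 to 0.0916. CASP8AP2, a partner of CASP8 that also acts in the nucleus, differed by -0.21 and -0.24 without a call in either.

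Of 10 measured genes in a list of caspase substrates and DFFB, the nuclease freed when its partner DFFA is cut, 1 rose and 1 fell against both controls. These are shares of 10% and 10%, beside 9.37% and 8.61% of all genes. LMNA, which encodes lamin A and C, lay at 7.20 to 7.31 with miR-520f, at 7.57 to 7.89 in negative control and at 7.59 to 7.97 in reagent-only cells, with changes of -0.54 (limma adjusted p = 0.0038) and -0.52 (limma adjusted p = 0.00426). SPTAN1, a spectrin chain, rose by 0.30 and 0.27 (limma adjusted p = 0.0127 and 0.022). The SPTAN1 call against the negative control was lost with a trended variance prior and without miR-520f replicate 1 or 2 or negative control replicate 1, with adjusted p of 0.0515 to 0.0791, and that against reagent-only cells without miR-520f replicate 2 (limma adjusted p = 0.0502). PARP1, the DNA repair protein whose cleavage is a common sign of apoptosis (named after its values were seen), had log2 fold changes of -0.07 and 0.03. These are transcript levels, and no protein, cleavage or cell death was measured.

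**Figure D4:**
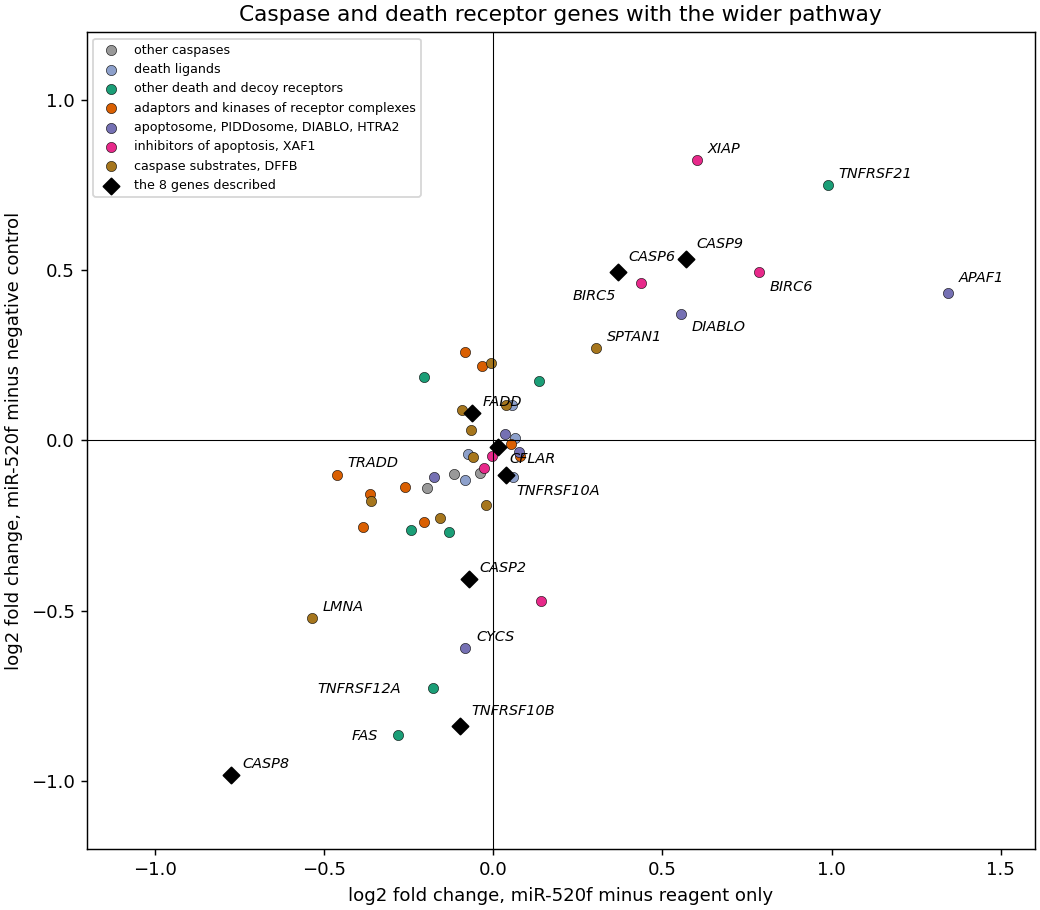
Log2 fold change of miR-520f against reagent-only cells (horizontal axis) and against the negative control (vertical axis) for the 8 genes (diamonds) and 46 further pathway genes (circles, coloured by list). Genes that differed mostly from the negative control, such as TNFRSF10B, FAS and CYCS, lie low and near the vertical axis line, and both axes share the miR-520f arrays.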

How the data were processed

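Total RNA of PANC-1 cells was labelled with biotin and read on 9 arrays, as the labels' protocols state. Expression values on the log2 scale were deposited by the authors for 22011 probe sets, from 2.23 to 13.6. Partek 6.6, RMA and build hg18 are named in the submitters' processing notes. RMA corrects background, equalises array distributions and summarises probes. A filter on probe sets is not given in the sources used here. Of the probe sets, 14432 had 1 gene symbol in the platform annotation, and the brightest probe set per gene gave 14232 genes. One mean per group was fitted across all genes with limma 3.58.1 in R 4.3.3 (9 arrays, 6 residual degrees of freedom), with Benjamini-Hochberg adjustment over all genes and a threshold of 0.05. The fit was tested on simulated data. The comparisons share arrays, so their values are not independent. The 8 genes and the lists were chosen with earlier results of these data known. Named from the lists were up to 4 genes called against both controls in one direction, or otherwise the 2 with the largest smaller absolute fold change whatever its sign, and other names are marked. The nearest 2 genes per member were named by centred values. The number of arrays limits precision.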

Additional observations from a re-analysis of the deposited data

How the results depend on the processing

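The 24 log2 fold changes of the 8 genes were recomputed under up to 17 alternatives: a further quantile normalization, centring arrays on the median, leaving out genes below the median level of 4.53, averaging probe sets, fitting only the groups compared, an unmoderated model, a trended prior, a replicate block and leaving out each of 9 arrays. Of 402 values, 396 kept their side of the threshold, 5 calls were lost, 1 was gained and 0 reversed, all named above. Fold changes never called changed sign in 15 of these. CASP9 and TNFRSF10A were dropped by the filter on level. Leaving out 1 array gave 2 to 3 of the 8 genes called against reagent-only cells and against both controls. It gave 5 against the negative control, and 1 to 3 between the controls (1 without reagent-only replicate 2). Of all 14232 genes, 1631 to 2389 were then higher and 1505 to 2102 lower against reagent-only cells. Against the negative control these counts were 1756 to 2215 and 1441 to 1822, and between the controls 614 to 1041 and 780 to 1140. All-gene counts against both controls were not made under the alternatives. The labels do not say whether the replicate numbers pair the arrays. Correlations of same-numbered deviations ran from -0.026 to 0.205, which does not decide it. With the replicate block, 3 of the 8 genes were called against reagent-only cells, 5 against the negative control and 2 between the controls. Of all 14232 genes, 2126 were then higher and 1934 lower against reagent-only cells. Against the negative control the all-gene counts were 2283 and 1876, and between the controls 1073 and 1224. With this block RBCK1 was called against the negative control (-0.25, limma adjusted p = 0.0261). CASP5 lost its call against reagent-only cells (limma adjusted p = 0.0749). Depth in the sense of reads does not apply to arrays. Small changes of TNFRSF10A were not resolved with 3 arrays a group. Its SD was 0.31 in negative control, 0.06 in miR-520f and 0.07 in reagent-only cells.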
